A study of Rattus norvegicus with 32 samples.

Results

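Interleukin-10 (IL-10) and the receptor through which it acts were followed in the left ventricle of septic rats. The 3 genes were Il10, which encodes the cytokine, Il10ra, which encodes the receptor chain that binds it, and Il10rb, which encodes the accessory chain. Probes were taken where the array files named 1 of these genes, in the male or in the female files, and control spots were not used. This gave 6 probes of 45598 on the array, for 3 of 18778 named genes. All 3 genes were kept for testing in both sexes through 4 of the 6 probes. Both kept probes of Il10 passed the filter on low signal through septic groups alone, in which the gene was high, so their tests against sham are not independent of that filter.

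IL-10 is an anti-inflammatory cytokine made mainly by macrophages, dendritic cells and subsets of lymphocytes. It binds a receptor built of both chains, whose kinases Jak1 and Tyk2 phosphorylate Stat3, and the Stat3 programme lowers the production of inflammatory cytokines and chemokines. Il10ra is found mostly on leukocytes and is particular to IL-10, while Il10rb is widely expressed and is shared with the receptors of IL-22 and the lambda interferons. In sepsis IL-10 rises in blood, but its messenger is scarce in the healthy heart.

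The hearts came from Wistar rats aged 9 to 12 weeks, in 6 groups, 3 of each sex. In each sex there were 5 rats with a sham operation, 5 rats with cecal ligation and puncture (CLP, a model in which bowel content seeds a polymicrobial peritonitis) and 6 rats with CLP plus landiolol. Landiolol, a short-acting blocker of the beta-1 adrenergic receptor, was infused at 0.1 mg/kg/min from 1 h after CLP, and the other rats received the same volume of saline. All rats had buprenorphine before surgery, and all hearts were perfused ex vivo before they were frozen at 20 h. Each rat gave 1 array, and the study asked how the 2 sexes differ in the response to sepsis and to landiolol.

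On the 32 arrays, between 34920 and 43155 spots were well above background, a call that the scanner software makes for each spot. No member probe was saturated on any array. The arrays lay on 4 slides, 2 for each sex, so sex and slide cannot be told apart. For the single-sex results levels were normalised within a sex, and levels were not compared between the sexes. For the joint model of both sexes, all 32 arrays were normalised together. In the females, all 5 sham arrays lay in row 1 of a slide and all 6 CLP plus landiolol arrays in row 2. The 2 female slides also differed in extraction protocol, GE1_107_Sep09 for 1 and GE1_105_Dec08 for the other. Both male slides had the latter. Slide and protocol cannot be told apart in the females. The dimmest array was that of male CLP plus landiolol replicate 5.

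The sequences that were measured are given first, because Il10 was close to the limit of detection and its probes did not all give a signal. Each probe has 60 bases, and the first 30 are shown, 5′ to 3′ as in the scanner files, except for the downstream probe of Il10, where bases 21 to 50 are shown. The positions are those of the whole probe on rat build rn4. In the downstream probe of Il10 the capitals mark an ATTTA pentamer, the core of the AU-rich elements that shorten the life of many cytokine messengers. None of the other 5 probes holds these letters, which says nothing of the rest of their transcripts.
Il10 downstream probe, chr13:43957707-43957766, plus strand: tctctccaaaatATTTAttacctctgatac
Il10 middle probe, chr13:43956439-43956498, plus strand: tttctcccctgtgagaataaaagcaaggca
Il10 upstream probe, chr13:43955898-43955957, plus strand: agcatatccaggacatctatgtctctgact
Il10ra, first probe, chr8:48209764-48209823, minus strand: ctttggcatcctgtcaagatgctcatgatg
Il10ra, other probe, chr8:48211054-48211113, minus strand: agcctgcagatagaagagtgacaggggata
Il10rb probe, chr11:31397013-31397072: tgtgtcagccagcttcccactgttgtaaca
The files do not place the probes in exons or untranslated regions. For the downstream and middle probes of Il10 the files name the same transcript, starting at its bases 622 and 385, and for the upstream probe a predicted variant. For Il10ra they name a predicted transcript for the first probe and a transcript not marked as predicted for the other.

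Detection came before level. The downstream probe of Il10 was well above background on 18 of 32 arrays, 9 in each sex, and the middle probe on 18 arrays, 10 male and 8 female. The upstream probe was well above background on 0 arrays. Both the downstream and the middle probe were well above background on 0 of 10 sham arrays and on 15 of 22 arrays of septic rats. At least 1 of them was on 3 of 10 sham arrays, all male, and on 18 of 22 arrays of septic rats. Il10 was therefore called present mainly in septic hearts, although not in all of them. Across the 16 arrays of a sex the levels of the 2 probes had a Pearson r of 0.82 in the males and 0.82 in the females, and 0.56 and 0.45 after the group means were taken out. These arrays share the groups and the normalisation, and the correlations are given as a description.

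The receptor chains were measured on every array. The first probe of Il10ra and the probe of Il10rb were well above background on all 32 arrays. The other probe of Il10ra was so on 1 array, male sham replicate 4, and was not kept for testing. The tests of Il10ra therefore rest on its first probe, that of the predicted transcript. For each gene the kept probe with the highest mean level was taken as its value, which for Il10 was the downstream probe, and the middle probe is given beside it.

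In the males, Il10 rose after CLP. Its log2 levels in the 5 sham hearts were 1.96, 4.06, 2.02, 2.31 and 3.51, of which only replicate 2 (4.06) was well above background. In the 5 CLP hearts they were 4.23, 5.62, 6.77, 7.36 and 6.69, and all but replicate 1 (4.23) were well above background. In the 6 CLP plus landiolol hearts the lowest was 4.28, the median 6.08 and the highest 7.26, with 4 of 6 well above background. Every septic heart lay above every sham heart, while the CLP and CLP plus landiolol hearts overlapped over nearly their whole range.

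The group means were 2.77 ± 0.95 in sham (SD, n = 5), 6.14 ± 1.23 in CLP (SD, n = 5) and 5.83 ± 1.19 in CLP plus landiolol (SD, n = 6). CLP was higher than sham by 3.36 on the log2 scale (SE 0.66, 95% interval 1.96 to 4.76, limma, adjusted p = 0.00269). The probe was kept through the CLP group, with 4 of 5 arrays well above background against 1 of 5 in sham, and with no filter on low signal the adjusted p was 0.00634. This is 10.3-fold on these values, but 4 of the 5 sham levels were not well above background, so the size is less certain than the direction. Within the 2 slides that held the male arrays the difference was 2.53 and 4.41. The exact two-sided permutation test on these 5 and 5 hearts gave p = 0.00794, the smallest that this design allows.

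In the females the order of the groups was sham, CLP, CLP plus landiolol. The sham levels were 2.44, 2.94, 2.18, 2.14 and 2.13, none of them well above background. The CLP levels were 5.23, 3.60, 5.61, 4.87 and 5.09, and all but replicate 2 (3.60) were well above background. In CLP plus landiolol the lowest was 4.31, the median 5.86 and the highest 6.40, with 5 of 6 well above background. As in the males, no septic heart overlapped with a sham heart, and the 2 septic groups overlapped with each other.

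The means were 2.36 ± 0.34 in sham (SD, n = 5), 4.88 ± 0.77 in CLP (SD, n = 5) and 5.55 ± 0.84 in CLP plus landiolol (SD, n = 6). CLP was higher than sham by 2.51 (SE 0.41, 95% interval 1.65 to 3.38, limma, adjusted p = 0.00122). Here the probe was kept through both septic groups and through no sham array, and with no filter the adjusted p was 0.00370. Because the sham hearts were below detection, the size of the fold is uncertain. With each sham level raised to the lowest signal detected on its array, Il10 was 2.82-fold higher in CLP and 4.49-fold higher in CLP plus landiolol. These are not strict lower bounds, since a probe can go undetected above that signal. In female sham replicate 2 the middle probe was not well above background at 3.72, where the lowest detected signal was 3.44. Within the 2 female slides CLP differed from sham by 1.98 and 2.77. When the slide row entered the model, a step chosen after seeing the data, the difference was 2.45 and just missed the FDR (adjusted p = 0.0103).

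**Figure D1:**
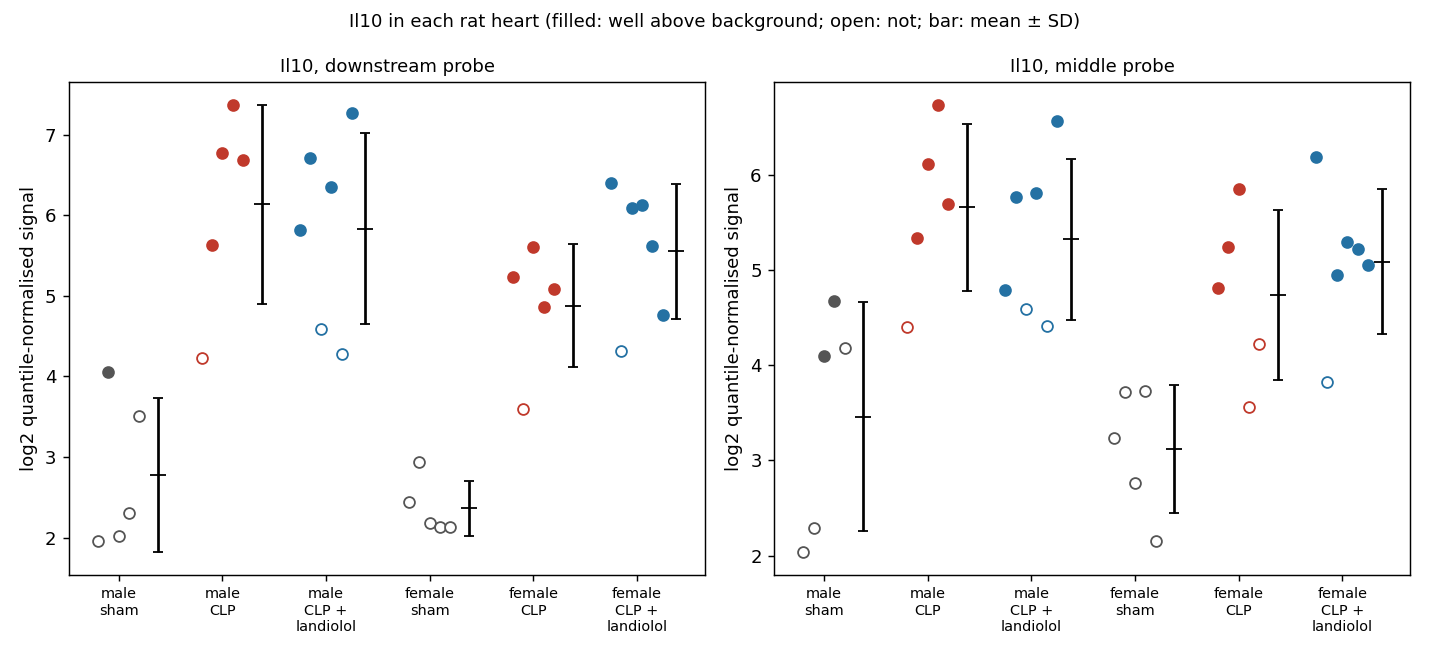
Log2 quantile-normalised signal (vertical axis) of the downstream probe of Il10 (left) and of its middle probe (right) in every heart, by sex and treatment (horizontal axis). Points are hearts, filled where the probe was well above background and open where it was not, and bars are mean ± SD. With the downstream probe no septic heart lies as low as a sham heart of its sex, and the middle probe shows overlap in CLP.

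The middle probe moved the same way but less. In the males its levels were 2.03, 2.29, 4.10, 4.67 and 4.18 in sham and 4.40, 5.34, 6.11, 6.73 and 5.69 in CLP. In the females they were 3.23, 3.72, 2.76, 3.73 and 2.16 in sham and 4.81, 5.24, 5.85, 3.56 and 4.22 in CLP. In each sex 1 CLP heart reached down into the sham range. The difference was 2.20 in the males (SE 0.57, limma, adjusted p = 0.0151) and 1.62 in the females (SE 0.45, limma, adjusted p = 0.0340), which did not pass the FDR of 1%. Without male CLP replicate 1 the male difference was 2.51 and passed (adjusted p = 0.00713), and it also passed with the slide in the model (2.43, adjusted p = 0.00246).

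CLP plus landiolol against sham gave the same picture. With the downstream probe Il10 was higher by 3.06 in the males (SE 0.63, limma, adjusted p = 0.00593) and by 3.19 in the females (SE 0.39, limma, adjusted p = 0.000128). Within slides the differences were 2.70 and 3.35 in the males, and 3.79 and 2.53 in the females. The male call did not survive when any 1 of 7 arrays was left out: sham replicates 1, 3 and 4 and CLP plus landiolol replicates 1, 2, 4 and 6 (differences of 2.78 to 3.07, adjusted p of 0.0127 to 0.0199). With the middle probe the difference was 1.86 in the males (limma, adjusted p = 0.0410) and 1.97 in the females (limma, adjusted p = 0.00736), and the female call was lost without any 1 of 8 arrays, sham replicates 1, 3 and 5 or CLP plus landiolol replicates 1, 3, 4, 5 and 6 (differences of 1.73 to 2.00, adjusted p of 0.0139 to 0.0233). The female middle probe also failed with the slide in the model (1.95, adjusted p = 0.0105) and with no filter (adjusted p = 0.0171), and with no filter the male downstream probe failed (adjusted p = 0.0136). When slide row entered the female model, the row effect was estimated from the CLP arrays alone, the only group in both rows. With that effect taken out, neither probe passed in limma (downstream 3.02, adjusted p = 0.110, and middle 3.38, adjusted p = 0.0541).

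Landiolol did not move Il10 past the FDR of 5% in either sex. CLP plus landiolol minus CLP was -0.30 in the males (95% interval -1.64 to 1.04, limma, adjusted p = 0.840) and 0.67 in the females (95% interval -0.15 to 1.5, limma, adjusted p = 0.632). The slides disagreed on the direction, with 0.16 and -1.06 in the males and 1.81 and -0.24 in the females. The intervals are wide enough that a change of 2-fold in either direction in the males, or upwards in the females, is within them. Male Il10 turned sign, to 0.0050 and 0.0083, without CLP replicate 4 or without CLP plus landiolol replicate 5.

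Of the 3 genes, Il10 alone passed in each single-sex comparison with sham, and none passed for landiolol. As background, 7.81% of all probes tested passed for CLP against sham in the males and 3.63% in the females. For CLP plus landiolol against sham 4.15% passed in the males and 5.25% in the females. For CLP plus landiolol against CLP 1.56% passed in the males and 0.0945% in the females. Groups without overlap were found for 12.3% of probes between male CLP and sham and for 8.32% in the females, and for 7.78% and 9.73% between CLP plus landiolol and sham. By that count, Il10 separated in all 4 comparisons with sham and Il10rb in 1.

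The size of the Il10 change differed with how values near background were treated. In the table of processed values that the authors deposited, the lowest value was 4.97 in the males and 5.28 in the females, and levels of both Il10 probes that were not well above background lay between 4.97 and 5.14 in the males and between 5.28 and 5.37 in the females. There the downstream probe gave 5.0 ± 0.027 in male sham, 6.36 ± 0.99 in male CLP, 5.32 ± 0.025 in female sham and 5.42 ± 0.16 in female CLP (SD, n = 5 each). The difference between CLP and sham was thus 1.37 in the males (limma, adjusted p = 0.0653) and 0.10 in the females (limma, adjusted p = 0.838), and neither passed. The 4 female CLP hearts in which the probe was well above background had 5.38, 5.69, 5.34 and 5.31 in the table, and only that at 5.69 stood clear of the sham hearts. The paper used another test, significance analysis of microarrays (SAM), at an FDR of 1%. It reported IL10 as increased in male CLP and as not regulated in female CLP.

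Correction by normexp with an offset of 50, which also lifts low values, gave 1.02 in the males (adjusted p = 0.0151) and 0.52 in the females (adjusted p = 0.0405). When values not well above background were raised to the lowest detected level of their array, an alternative chosen after seeing the data, the difference was 2.82 in the males (adjusted p = 0.00548) and 1.54 in the females (adjusted p = 0.0160). The direction was the same in both sexes throughout. The female call at the FDR of 1% was lost in all 3, and the male call in 2 of them.

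**Figure D2:**
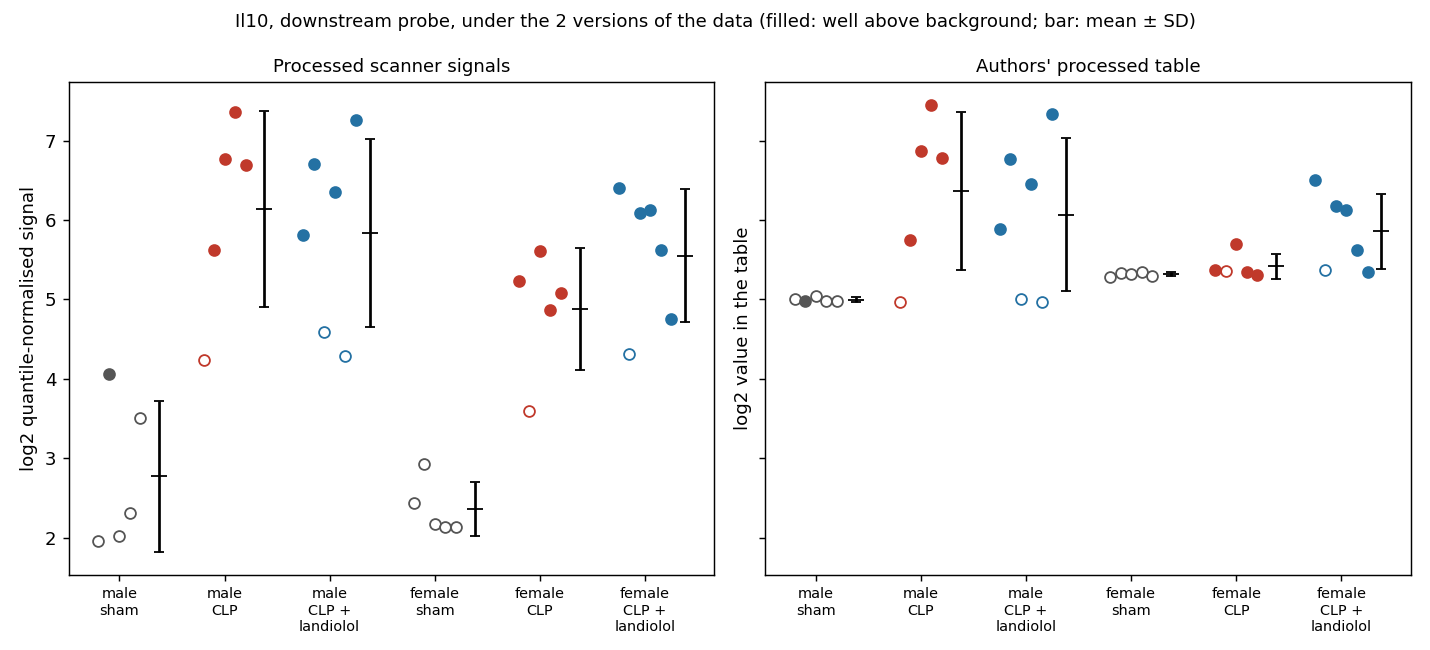
Log2 level (vertical axis) of the downstream probe of Il10 in every heart from the processed scanner signals (left) and in the table deposited by the authors (right), by sex and treatment. Points are hearts, filled where well above background, and bars are mean ± SD. In the right panel every sham heart sits at the lowest level of its sex, near 5.0 in the males and 5.32 in the females, together with most female CLP hearts.

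Il10ra, the chain that binds IL-10, was slightly lower after CLP without passing in either sex. In the males its log2 levels were 7.47, 7.39, 7.34, 7.17 and 7.44 in sham, and 7.12, 7.39, 7.15, 6.93 and 7.29 in CLP. With landiolol they ran from 7.11 over a median of 7.32 to 7.60. The 3 male groups overlapped.

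In the females Il10ra was 7.26, 7.32, 7.40, 7.14 and 7.18 in sham, and 7.21, 6.74, 6.94, 6.77 and 6.60 in CLP. With landiolol the lowest was 6.66, the median 7.07 and the highest 7.35. Of the 5 CLP hearts, 4 lay below all sham hearts, and replicate 1 lay among them.

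CLP minus sham for Il10ra was -0.19 in the males (95% interval -0.43 to 0.06, limma, adjusted p = 0.322) and -0.41 in the females (95% interval -0.72 to -0.10, limma, adjusted p = 0.0939). Both slides of each sex gave a lower value in CLP, with -0.21 and -0.21 in the males and -0.52 and -0.32 in the females. CLP plus landiolol minus CLP was 0.16 in the males (95% interval -0.08 to 0.39, limma, adjusted p = 0.530) and 0.16 in the females (95% interval -0.13 to 0.46, limma, adjusted p = 0.781). CLP plus landiolol minus sham was -0.029 in the males (adjusted p = 0.903) and -0.25 in the females (adjusted p = 0.276).

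Il10rb, the shared chain, was slightly higher in septic hearts. In the males its log2 levels were 11.05, 10.78, 10.76, 10.61 and 11.08 in sham, and 11.12, 11.18, 11.25, 11.26 and 11.32 in CLP. With landiolol they ran from 10.94 over a median of 11.27 to 11.33. All male CLP hearts lay above all sham hearts and 1 landiolol heart (10.94) lay within the sham range.

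In the females Il10rb was 10.98, 10.47, 10.47, 10.91 and 10.77 in sham, and 10.80, 10.55, 10.92, 10.88 and 11.28 in CLP. With landiolol the lowest was 10.86, the median 11.06 and the highest 11.31. Female sham and CLP hearts overlapped, and 5 of 6 landiolol hearts lay above the highest sham heart.

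CLP minus sham for Il10rb was 0.37 in the males (95% interval 0.13 to 0.61, limma, adjusted p = 0.0356) and 0.17 in the females (95% interval -0.15 to 0.49, limma, adjusted p = 0.561). The male difference missed the FDR of 1% and would pass at 5%. Within slides it was 0.27 and 0.47 in the males and -0.02 and 0.31 in the females. CLP plus landiolol minus sham was 0.36 in the males (adjusted p = 0.0424) and 0.35 in the females (adjusted p = 0.126). Between the 2 septic groups the difference was -0.0035 in the males (95% interval -0.23 to 0.22, limma, adjusted p = 0.992) and 0.18 in the females (95% interval -0.12 to 0.49, limma, adjusted p = 0.748).

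**Figure D3:**
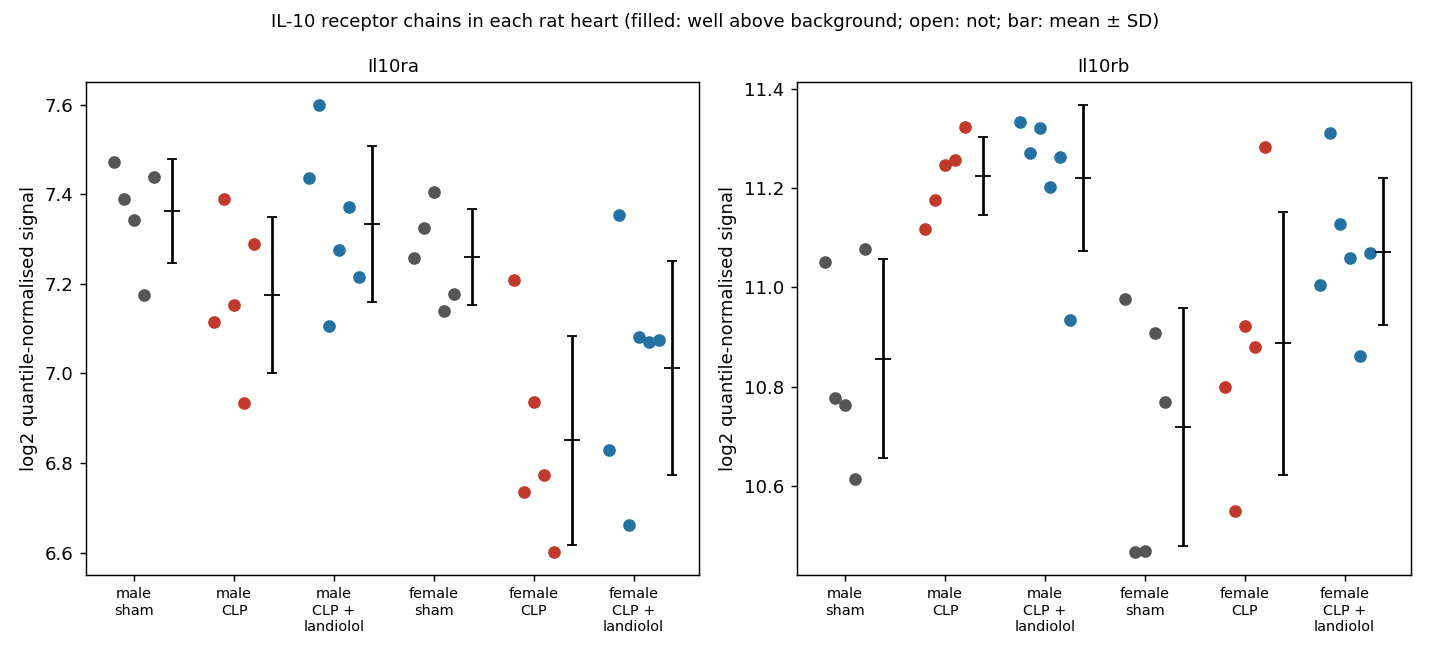
Log2 quantile-normalised signal (vertical axis) of Il10ra (left) and Il10rb (right) in every heart, by sex and treatment (horizontal axis). Points are hearts, all of them well above background, and bars are mean ± SD. The group means of Il10ra lie between 6.85 and 7.36 and those of Il10rb between 10.72 and 11.22, so the receptor chains differ far less between groups than Il10.

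With both sexes in 1 model of 32 arrays, normalised together, the mean of the 2 sexes was tested on the probes kept in both sexes. Il10 was higher in CLP than in sham by 2.95 with the downstream probe (SE 0.40, limma, adjusted p = 2.06e-06) and by 1.90 with the middle probe (SE 0.38, limma, adjusted p = 0.000281). Both passed, as did 18.1% of all probes. Il10ra differed by -0.30 (SE 0.09, limma, adjusted p = 0.0113) and Il10rb by 0.27 (SE 0.09, limma, adjusted p = 0.0256), and neither passed at 1%. The Il10ra value passed without male sham replicate 4 (-0.32), male CLP replicate 2 (-0.33) or female CLP replicate 1 (-0.34), and that of Il10rb without female CLP replicate 2 (0.31).

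In the same model CLP plus landiolol exceeded sham by 3.13 for the downstream probe of Il10 (limma, adjusted p = 5.07e-07), by 1.91 for the middle probe (adjusted p = 0.000195) and by 0.36 for Il10rb (SE 0.09, limma, adjusted p = 0.00224), all of which passed, against 16.7% of all probes. Il10ra did not pass (-0.14, adjusted p = 0.240). No member passed between CLP plus landiolol and CLP, where 5.02% of probes did: the differences were 0.18 for Il10 (95% interval -0.60 to 0.97), 0.16 for Il10ra (95% interval -0.01 to 0.33) and 0.09 for Il10rb (95% interval -0.08 to 0.27). The 3 comparisons share their groups, so these values are not independent of each other.

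The changes were also set against each other between the sexes. For CLP against sham, the male minus the female difference was 0.83 for Il10 (95% interval -0.81 to 2.48), 0.22 for Il10ra (95% interval -0.14 to 0.58) and 0.19 for Il10rb (95% interval -0.18 to 0.56). For CLP plus landiolol against CLP it was -0.97 (95% interval -2.54 to 0.60), -0.0026 (95% interval -0.35 to 0.34) and -0.19 (95% interval -0.54 to 0.16). None passed the FDR of 5% in limma, nor did any probe: 0 of 24769 in either comparison, a share of 0%, with or without a trended prior, and 867 and 1217 at an unadjusted p of 0.05. A difference between the sexes in these 3 genes was therefore not detectable, and the intervals for Il10 span several-fold changes.

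**Figure D4:**
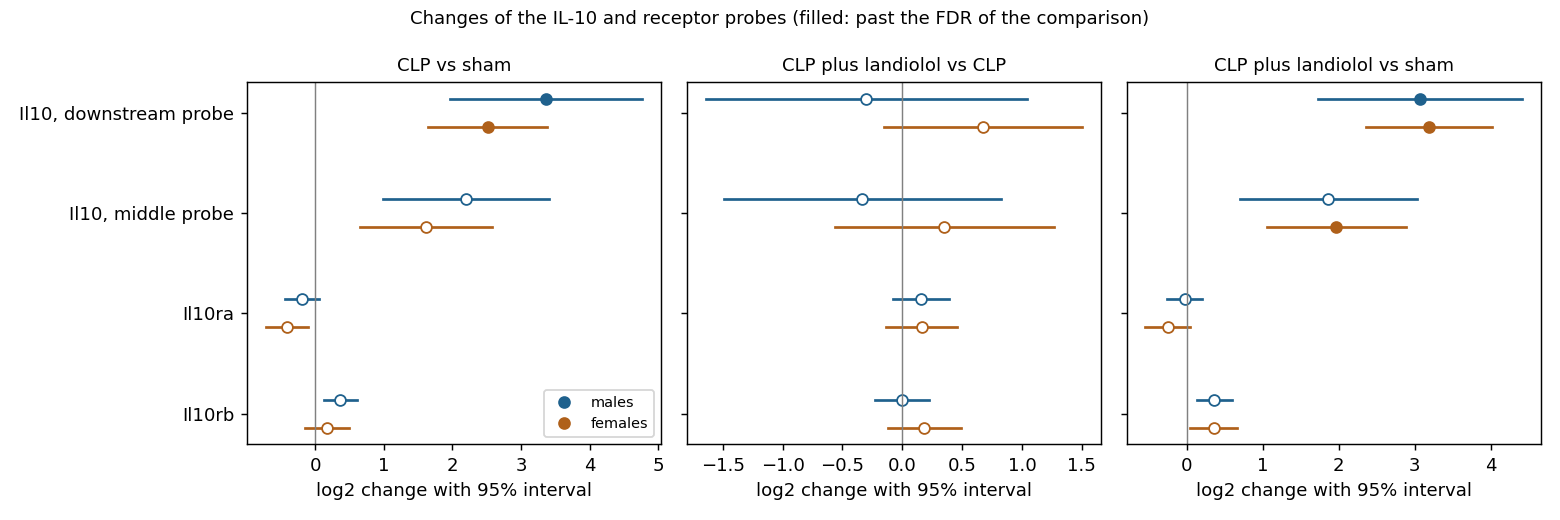
Log2 change (horizontal axis) with its 95% interval for both kept probes of Il10 and for Il10ra and Il10rb, in the males (blue) and the females (orange), for the 3 comparisons of the panels. Filled points passed the FDR of the comparison. Only Il10 passed, with the downstream probe in both comparisons with sham and with the middle probe in the females with landiolol (1.97), and all intervals of CLP plus landiolol against CLP include 0.

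The genes around IL-10 were read from lists of its family, its signal relay and its known targets, and counts are for single-sex comparisons unless the mean of the sexes is named. None of the 4 related cytokines Il19, Il20, Il22 and Il24 was kept for testing. Il19 and Il22 were well above background on 0 arrays. Of the 5 receptor genes of these cytokines and of the lambda interferons, 2 were tested and neither passed in a single-sex comparison. Ifnlr1, the partner of Il10rb in the lambda interferon receptor, was 0.91 higher in male CLP (adjusted p = 0.0227) and 0.59 in female CLP (adjusted p = 0.185), and it passed in the mean of the sexes (0.75, adjusted p = 0.00293). Il22ra2, a soluble decoy for IL-22, differed by -0.08 and -0.97.

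Of 5 genes of the signal relay, Stat3 alone rose in the sexes taken singly after CLP. It was higher by 1.59 in the males (SE 0.17, limma, adjusted p = 3.11e-05) and by 1.06 in the females (SE 0.18, limma, adjusted p = 0.00157). The kinases Jak1 (0.051 and -0.079) and Tyk2 (-0.22 and -0.18) and the feedback inhibitor Socs3 (0.48 and 1.05, males and females) did not pass. Socs1, another feedback inhibitor, differed by -0.31 in the males (adjusted p = 0.512) and by -1.34 in the females (adjusted p = 0.0259), and fell by 0.82 in the mean of the sexes (adjusted p = 0.00740). The median of the 5 was 0.051 in the males and -0.079 in the females, against 0.0091 and -0.015 over all probes tested.

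With landiolol, male Stat3 fell by 0.82 from its level in CLP (SE 0.17, limma, adjusted p = 0.0235), and the female difference was -0.29 (adjusted p = 0.645). It was still 0.78 above sham in each sex (adjusted p = 0.00710 and 0.00736). Socs1 was lower than sham in female CLP plus landiolol (-1.85, adjusted p = 0.00221), and the male difference was -0.26 (adjusted p = 0.585).

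Of 16 genes known to be induced by IL-10 in myeloid cells, 15 were tested, and 3 rose in the males and 1 in the females after CLP, with none lower. Of all probes tested 3.88% rose in the males and 1.82% in the females. Hmox1, which degrades heme, was higher by 2.91 in the males (SE 0.28, limma, adjusted p = 1.09e-05) and by 3.16 in the females (SE 0.44, limma, adjusted p = 0.000392). Ddit4, a stress-induced inhibitor of mTOR, rose by 1.65 and Sbno2, a transcriptional co-repressor, by 1.04, both in the males, and the female differences of 0.63 and 0.97 did not pass. The median of the tested genes was 0.48 in the males and 0.47 in the females. Hmox1 is also induced by heme and Ddit4 by low oxygen.

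With landiolol male Hmox1 fell by 1.75 from its level in CLP (SE 0.27, limma, adjusted p = 0.00484). The female difference was -1.29 (adjusted p = 0.297). In either sex no other gene of this list passed for landiolol against CLP, and in the mean of the sexes Nfil3, a transcriptional repressor, was lower as well (-0.79, adjusted p = 0.0132). The median was -0.07 in the males and -0.15 in the females. Il10 itself, as given above, did not pass in that comparison.

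Of 14 inflammatory genes that IL-10 lowers in myeloid cells, 9 were tested in the males and 10 in the females, and only Cxcl10 passed. This chemokine, which interferons induce, fell by 2.66 after CLP in the males (SE 0.63, limma, adjusted p = 0.00892) and fell by 5.08 in the females (SE 0.44, limma, adjusted p = 1.68e-05). Its level was 9.6 to 13.26 in male sham and 7.14 to 9.27 in male CLP, and 12.70 to 15.31 and 8.47 to 9.93 in the females, with no overlap. CLP plus landiolol minus sham was -5.23 in the females (adjusted p = 4.80e-06) and -1.70 in the males (adjusted p = 0.0888), which did not pass. Tnf (-0.45 and -1.11), Il1b (-0.09 and 0.47) and Il6 (0.57 and 0.15, males and females) did not pass. The list median was 0.27 in the males and 0.07 in the females.

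**Figure D5:**
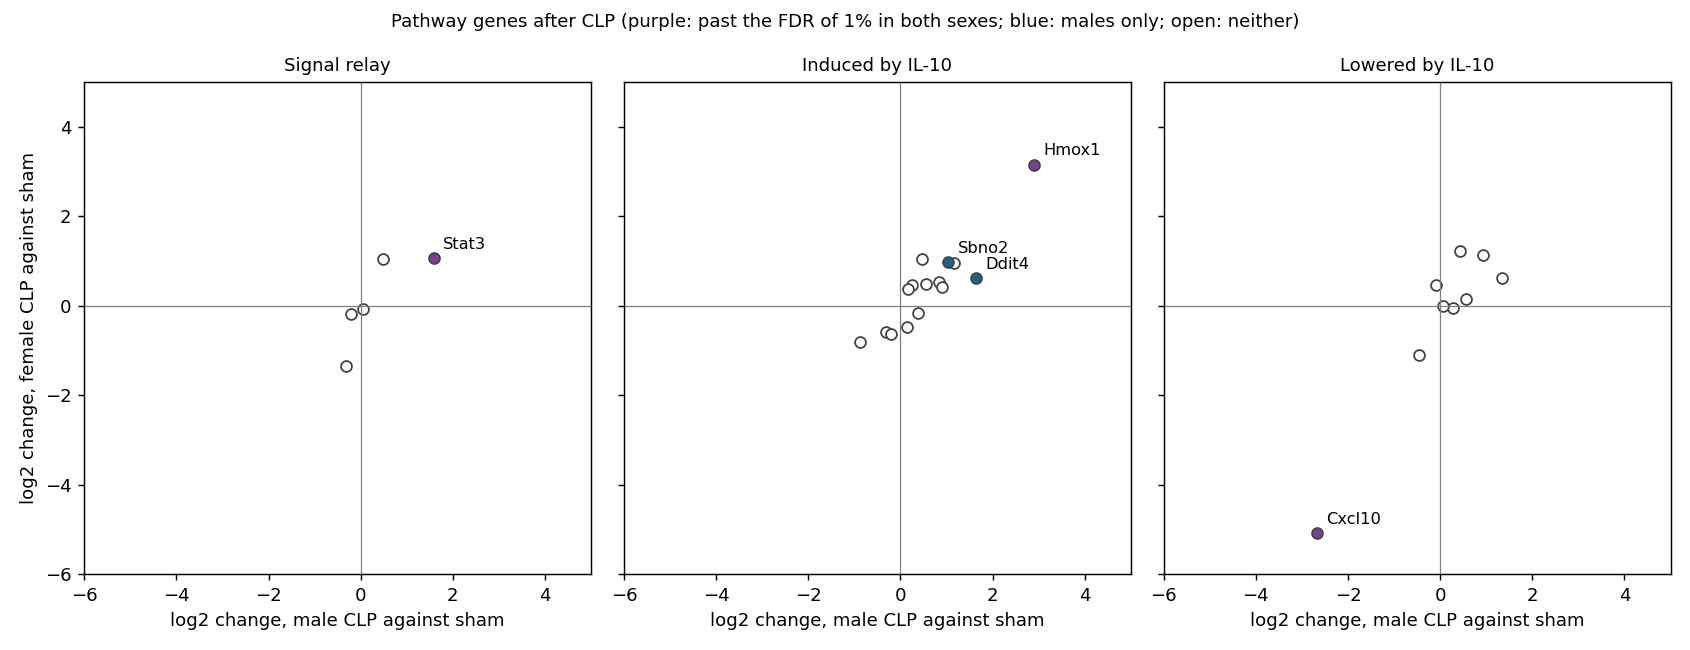
Log2 change after CLP in the males (horizontal axis) and in the females (vertical axis) for tested genes of the signal relay (left), the genes induced by IL-10 (middle) and the genes lowered by IL-10 (right). Points are genes, purple where they passed the FDR of 1% in both sexes, blue in the males only and open in neither. Stat3, Hmox1 and Cxcl10 passed in both sexes, and most other genes lie between -2 and 2 on both axes.

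Of 17 regulators of Il10 transcription, 16 were on the array. Crem, a cAMP-responsive factor, rose in male CLP by 1.31 (SE 0.18, limma, adjusted p = 0.000216) and fell by 1.35 with landiolol (SE 0.18, limma, adjusted p = 0.00249). In the females the same differences were 0.73 (adjusted p = 0.164) and -1.24 (adjusted p = 0.136). Cebpb rose in male CLP (0.67, adjusted p = 0.00447). Against sham, Batf (1.93) and Ebi3 (1.26) were higher in male CLP plus landiolol, while Maf was higher (0.61) and Prdm1 lower (-0.90) in female CLP plus landiolol. The list median for CLP was 0.26 in each sex.

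Some markers of macrophages and neutrophils rose after CLP, and no tested marker of lymphocytes did. In whole tissue, more cells of a type and more RNA per cell cannot be told apart. Of 10 macrophage and monocyte markers 8 were tested, and 5 rose in the males (Adgre1, Cd68, Itgam, Lyz2 and Msr1) and 3 in the females (Adgre1, Cd68 and Lyz2) after CLP. The other tested markers, Csf1r, Cd14 and Cx3cr1, passed in neither sex. Of all probes tested 3.88% rose in the males and 1.82% in the females. The median change of the tested markers was 1.06 in the males and 0.68 in the females. The summed level of the list was 14.02 to 14.66 in male sham and 15.03 to 15.55 in male CLP, and 14.37 to 15.01 in female sham and 15.09 to 15.82 in female CLP. With landiolol it was 15.32 to 15.56 in the males and 15.21 to 15.67 in the females. Marco had no array well above background in male CLP or in the 3 female groups, and Ccr2 had none in female CLP or female CLP plus landiolol.

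Of 7 neutrophil markers, the 2 tested in the males, S100a8 and S100a9, both rose, and 1 of the 3 tested in the females, S100a8. The shares over all probes tested were again 3.88% in the males and 1.82% in the females. Their summed level rose from between 5.72 and 6.28 in male sham to between 7.40 and 9.71 in CLP and between 8.38 and 9.81 with landiolol, and in the females from between 5.98 and 6.88 to between 7.59 and 8.95 and between 7.75 and 10.19. Csf3r, Cxcr2, Mmp8 and Mmp9 were not well above background in sham hearts of either sex, and Mmp8 in no group. S100a8 was not well above background in any male sham heart. In the males it was thus kept through septic groups alone, and its test against sham is not independent of that filter. The part of these cells in the Il10 difference was not tested.

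Of 4 pan-leukocyte markers, all tested, Itgb2 rose after CLP in the males (1.31, adjusted p = 0.000129) and none passed in the females. With landiolol Coro1a (0.68, adjusted p = 0.0307) and Ptprc (0.55, adjusted p = 0.0450) were higher than in CLP in the males, and none passed in the females. The summed level in the males was 12.19 to 12.59 in sham, 12.43 to 12.96 in CLP and 13.19 to 13.61 with landiolol. The 2 septic groups did not overlap in this sum, and of all probes tested 2.26% did not overlap between them. Il10 overlapped and differed by -0.30, and the part of leukocytes in its level was not tested. In the females the summed level was 11.77 to 12.29, 11.92 to 12.56 and 12.39 to 13.03. Of 6 endothelial markers none passed after CLP in a single sex, and Kdr was higher in the mean of the sexes (0.49, adjusted p = 0.00326).

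In the sexes taken singly no marker of T and NK lymphocytes (7 tested in the males, 6 in the females) or of B lymphocytes (1 tested) passed after CLP. The T and NK median was -0.86 in the males and -0.45 in the females, and in the mean of the sexes 2 of 5 were lower, Cd3g (-1.01, adjusted p = 0.00839) and Nkg7 (-0.76, adjusted p = 0.000501). The summed T and NK level was 11.21 to 11.55 in male sham and 11.11 to 11.30 in male CLP, and 10.94 to 11.48 and 10.66 to 11.44 in the females. The summed B level was 9.16 to 10.10 and 9.08 to 9.84 in the males, and 8.73 to 10.14 and 8.25 to 9.42 in the females. Cd5, a T cell marker, and Ms4a1 and Cr2, B cell markers, were not well above background in any group. The tissue itself read as heart, with a summed level of 7 cardiomyocyte markers between 20.41 and 20.87 on all arrays. None of them passed in a single sex, and in the mean of the sexes Actc1 was lower in CLP (-0.71, adjusted p = 0.00173) and in CLP plus landiolol (-0.85, adjusted p = 0.000191) than in sham.

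The downstream probe was not well above background in male CLP replicate 1 and male CLP plus landiolol replicates 3 and 5, with summed macrophage levels of 15.20, 15.32 and 15.33 and summed neutrophil levels of 7.57, 8.58 and 8.38. The 2 landiolol hearts had the lowest sums of both lists in their group, whose other hearts started at 15.42 and 9.06, and the CLP heart did not. In the females these were CLP replicate 2 (15.75 and 7.65) and CLP plus landiolol replicate 2 (15.58 and 7.97). The spots well above background numbered 37952, 36813, 34920, 38061 and 36762 on these 5 arrays, and the part of array brightness was not tested.

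Among 12964 named genes kept in both sexes, the 5 with the pattern most like that of Il10 over the 16 arrays of a sex were Aoah (Pearson r of 0.84 in the males and 0.92 in the females), Parvg (0.93 and 0.82), Il1r2 (0.93 and 0.81), Tgfbr2 (0.87 and 0.86) and Glis3 (0.88 and 0.85). With the group means taken out the r of Aoah was 0.47 and 0.42 and that of Parvg 0.79 and -0.10. For Il1r2 it was 0.78 and 0.17, for Tgfbr2 0.55 and 0.06, and for Glis3 0.64 and 0.42. The r with Il10rb was 0.62 and 0.52, and with Il10ra -0.24 and -0.56.

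For Il10ra the most alike were Traf1 (0.80 and 0.82), Col4a6 (0.68 and 0.79), Cyp2j3 (0.64 and 0.81) and Scn2b (0.61 and 0.84). For Traf1 the r was 0.74 and 0.65 with group means taken out. For Il10rb they were Rps15a (0.87 and 0.80), Cecr2 (0.83 and 0.82), Rpl5 (0.87 and 0.77), Pafah2 (0.90 and 0.72) and Rplp1 (0.87 and 0.74). Of these, Rps15a, Rpl5 and Rplp1 encode ribosomal proteins, and the r of Rps15a was 0.76 and 0.72 with group means taken out. All arrays of a sex share slides, labelling and normalisation, and these values are a description.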

How the data were processed

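Per the labels, 32 left ventricles were hybridised to 1-colour Agilent arrays, which were read by the authors with Agilent Feature Extraction 10.5. The authors deposited the processed intensity of every spot, after subtraction of background, and their own filtered and quantile-normalised log2 values, for which an offset before the log2 is not given in the sources used here. From the intensities, outlier spots were left out, log2 was taken, replicate spots were reduced to their mean and each sex was quantile-normalised as a set of 16 arrays. For the joint model the 32 arrays were quantile-normalised together, and it held the probes kept in both sexes. A probe was kept if 80% or more of the arrays in some group had it well above background, and kept probes were tested with limma 3.58.1 in R 4.3.3, in a model of the 3 groups of a sex. P-values were adjusted after Benjamini-Hochberg over 25866 probes in the males, 25395 in the females and 24769 in the joint model. The FDR was 1% against sham and 5% for CLP plus landiolol against CLP and for differences between the sexes. The precision is limited by 5 or 6 arrays a group, which stand for separate rats. The paper used SAM, which was not run here. The genes, the lists and the rule for naming genes (the 3 genes always, at most 6 genes of a list that passed, and the 5 genes most alike) were chosen with earlier results of these data known. A further gene of the signal relay, beside the 5 given, and a gene most alike Il10ra are not reported here. The tests were checked on simulated data. Alternatives were the scaling (75th percentile), the background correction (normexp, offset 50), the authors' table, the filter, the groups in the model, a trended prior, slide and row, joint normalisation, the FDR, the probe and each array left out. Figures were drawn with matplotlib. Probe sequences and positions came from the scanner files.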

Additional observations from a re-analysis of the deposited data

Results flagged for a closer look

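In the 36 groups of 5 or 6 arrays (6 probes in 6 groups), 4 held 1 array far from the others by the gap to its nearest neighbour, and chance gives about 1 such group in 20. Of these 4, 3 were levels not well above background. The upstream probe of Il10 read 3.28 in male CLP replicate 4, with the nearest other array at 2.37, and 4.68 in male CLP plus landiolol replicate 5, the dimmest array, with the nearest at 2.29. The other probe of Il10ra read 2.20 in female CLP plus landiolol replicate 6, with the nearest at 2.08. The remaining value was well above background: Il10rb was 10.94 in male CLP plus landiolol replicate 6, below the other 5 hearts, of which the nearest had 11.20. Without this array male CLP plus landiolol minus CLP was 0.054 (limma, adjusted p = 0.808).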

How the results depend on the processing

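The comparisons of Il10, Il10ra and Il10rb were recomputed under each alternative, except that a filter on all arrays of a sex dropped both Il10 probes, which leaves Il10 without a value there. Differences that kept direction and call are not listed, and calls of the middle probe that the slide or the filter changed stand in the report. The middle probe also lost its female call for CLP plus landiolol against sham with normexp (0.46) and in the authors' table (0.17), lost those in the mean of the sexes in that table (0.50 for CLP, 0.35 with landiolol), and at an FDR of 5% gained those it had missed against sham. With the authors' table Il10 did not pass in CLP against sham (males 1.37, females 0.10, mean of the sexes 0.73) or in CLP plus landiolol against sham (1.07, 0.54 and 0.80). With normexp it did not pass in CLP against sham (1.02 and 0.52) or in male CLP plus landiolol against sham (0.87). With the floor at the lowest detected level it did not pass in female CLP (1.54) or male CLP plus landiolol (2.52) against sham, and without a filter not in the latter (3.06). With the row of the slide it did not pass in females (2.45 and 3.02). With the middle probe it did not pass in male CLP (2.20), female CLP (1.62) or male CLP plus landiolol (1.86) against sham. The upstream probe, never well above background, gave 0.34, 0.31 and 0.45 there, and -0.021 in female CLP plus landiolol against sham, 0.12 in male and -0.33 in female CLP plus landiolol against CLP, which turned the sign. The other Il10ra probe gave 0.0072 in female CLP against sham and -0.44 in female CLP plus landiolol against CLP. At an FDR of 5% Il10rb passed in male CLP (0.37), male CLP plus landiolol (0.36) and the mean of the sexes for CLP (0.27), and Il10ra in the last (-0.30), as it did with 75th percentile scaling (-0.32) and with the slide as a term (-0.32). Signs turned for Il10rb in male CLP plus landiolol against CLP (0.016 in the authors' table, 0.0029 with the slide), in females (-0.0092 with the row), for Il10ra in female CLP plus landiolol against sham (0.025 with the row) and in the sex difference of landiolol (0.064 with 75th percentile scaling), and for the middle probe of Il10 in the mean of the sexes for landiolol against CLP (-0.020 with normexp, -0.14 in the authors' table, -0.044 with the slide). Leaving out 1 array gave ranges of -0.78 to 0.0083 (Il10) and -0.030 to 0.054 (Il10rb) in male CLP plus landiolol against CLP, 2.78 to 3.38 (Il10) and -0.082 to 0.017 (Il10ra) in male CLP plus landiolol against sham, -0.34 to -0.27 (Il10ra) and 0.22 to 0.31 (Il10rb) in the mean of the sexes for CLP, and -0.057 to 0.34 (Il10) and -0.15 to 0.14 (middle probe) in the mean of the sexes for landiolol against CLP. Over all probes, the 24 called in females for landiolol against CLP ranged from 0 to 129 when 1 array was left out, and the 404 in males from 124 to 1022, and the 1332 called in female CLP plus landiolol against sham were 20 with the row of the slide. Beyond the alternatives themselves the cause was not tested. No paired analysis was possible because the labels pair no samples across groups.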
